A study of Rattus norvegicus with 6 samples.

Results

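The nuclei described here are oligodendrocyte precursor cells (OPCs) that carried transcripts of dividing cells, taken from the rat brain 48 h after arterial occlusion or a sham operation. Among nuclei with at least 500 UMIs (unique molecular identifiers, one per captured transcript), 250 to 5000 genes and at most 5% mitochondrial UMIs, an OPC was a nucleus with at least 4 UMIs, and at least 0.3% of its UMIs, from Pdgfra, Cspg4, C1ql1 and Vcan. It also had at most 3 UMIs of the neuronal genes Snap25, Syt1 and Rbfox3 and at most 1 UMI of the fibroblast genes Col1a1, Col1a2, Col3a1 and Dcn. A cycling OPC had, in addition, at least 2 UMIs over the 4 cycle genes Mki67, Top2a, Cenpf and Knl1. This left 67 cycling OPCs among 658 OPCs and 73649 nuclei, and the 591 OPCs with at most 1 cycle UMI are called other OPCs. The nuclei were thus chosen by their UMIs of these genes, whose levels in them are a description.

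All rats were wild-type male Wistar rats of 12 weeks. In the MCAO rats a filament had been left in the right middle cerebral artery, which gave moderate (mMCAO, 3 rats) or severe infarctions (sMCAO, 4 rats), and the 4 Sham rats had undergone the operation without occlusion. Nuclei from frozen coronal slices at the level of the lesion were pooled over the rats of a group and made into 1 droplet library per hemisphere, that is Sham L, Sham R, the infarcted hemispheres mMCAO ipsi and sMCAO ipsi, and the opposite hemispheres mMCAO contra and sMCAO contra. Sham, MCAO contra and MCAO ipsi were therefore groups of 2 pooled libraries, in which Sham L and Sham R came from the same rats and the others differed in infarct severity, so that p-values measure the spread between such libraries and not between animals. Sham L held 44214966 UMIs, Sham R 34777290, mMCAO contra 52513380, mMCAO ipsi 44829633, sMCAO contra 34519202 and sMCAO ipsi 33012945.

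OPCs are the dividing cells of the oligodendrocyte lineage in the adult brain, which self-renew and give rise to myelinating oligodendrocytes by way of committed precursors that have left the cell cycle. They are recognised by the growth factor receptor Pdgfra and by proteoglycans such as Cspg4 (NG2) and Vcan, and injury is known to raise their division. A dividing cell first makes the enzymes that copy DNA and later the motors, kinetochore proteins and scaffolds that pull the chromosomes apart, so the transcripts in a nucleus bear on where in the cycle it was.

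The label OPC was met by some markers and not by others. Of the 57 cycling OPCs in the infarcted hemispheres, 55 held a UMI of Vcan, 38 of Pdgfra, 16 of C1ql1 and 15 of Cspg4, all of which the rule used. Among genes the rule did not use, Sox6, a transcription factor of the early lineage, was seen in 52 and Tnr, a matrix protein, in 30. Sox10, Olig1 or Olig2, the transcription factors that define the lineage, were seen in 1 of 25 nuclei of mMCAO ipsi and in 12 of 32 of sMCAO ipsi. Of 21 Sox10, 4 Olig1 and 12 Olig2 UMIs over all OPCs of mMCAO ipsi, cycling OPCs held 1, 0 and 0. In sMCAO ipsi they held 8 of 64, 2 of 21 and 6 of 29. Cycling OPCs held 35934 of the 181381 UMIs of all OPCs in mMCAO ipsi and 76833 of 379006 in sMCAO ipsi. In 13 nuclei Vcan was the only gene of the OPC gate with a UMI, and in 3 no UMI fell on any of the 17 matched genes of an OPC list that the rule did not use. At least 2 UMIs of this list were held by 24 of 25 cycling OPCs in mMCAO ipsi and 29 of 32 in sMCAO ipsi. Among other OPCs, 134 of 136 (98.5%) did so in mMCAO ipsi and 149 of 188 (79.3%) in sMCAO ipsi. Summed over this list, which held Opcml, Pcdh15, Sox6 and Nxph1 among others, cycling OPCs reached 25380 CPM in mMCAO ipsi and 20811 in sMCAO ipsi, where CPM stands for UMIs relative to all UMIs of the nuclei summed, scaled alike in every library. Cycling nuclei that passed an astrocyte gate held 4254 and 4024 CPM of the same list, and cycling nuclei of a myeloid gate held 4513 and 1747 CPM.

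The cycle genes were shared out over the nuclei. Of the same 57 nuclei, 51 carried UMIs of at least 2 of the 4 cycle genes and 12 carried all 4, with Top2a, the enzyme that untangles replicated DNA, in 37, Mki67, the antigen of dividing cells, in 36, Knl1, a kinetochore scaffold, in 36 and Cenpf, a kinetochore and spindle protein, in 35. Among all 658 OPCs, 557 had no cycle UMI, 34 had 1, 18 had 2, 13 had 3, 10 had 4 and 26 had 5 or more. Nuclei just inside and just outside the threshold thus numbered 18 and 34. On the OPC side of the rule, 25 of the 67 nuclei had 4 or 5 gate UMIs, 6 more nuclei with cycle UMIs missed it by having 3, and 131 had enough gate UMIs but fell under 0.3% of their total, 95 of them in sMCAO ipsi.

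Libraries shared 118 to 280 cell barcodes per pair of libraries, and none of these belonged to an OPC in both libraries of the pair. Barcodes shared between an OPC and another kind of nucleus were not counted. A doublet score, which gives for each nucleus how many of its 30 closest profiles were artificial mixtures of 2 nuclei, put 2 cycling OPCs, both in sMCAO ipsi, and 5 other OPCs among the 5% of nuclei with the highest scores in their library. Free RNA can give UMIs to nuclei that do not express a gene, and neurons, which do not divide, served as a measure of it. Of gated neurons, 1.62% in mMCAO ipsi and 2.50% in sMCAO ipsi had at least 2 cycle UMIs, at median depths of 4311.5 and 7022 UMIs, against 15.5% and 14.5% of OPCs at median depths of 1007 and 1595 UMIs. With every nucleus thinned to 1000 UMIs and shallower ones left out, 0.198% and 0.230% of neurons had at least 2. Gated mature oligodendrocytes stood higher at this depth, with 4.24% of 283 in mMCAO ipsi and 1.35% of 891 in sMCAO ipsi. The part of free RNA in these shares was not tested.

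Cycling OPCs made up a larger share of the OPCs in the infarcted hemispheres than elsewhere. They were 25 of 161 OPCs in mMCAO ipsi (15.5%, exact 95% interval 10.3 to 22.1) and 32 of 220 in sMCAO ipsi (14.5%, 10.2 to 19.9). In the opposite hemispheres they were 5 of 128 in mMCAO contra (3.91%, 1.28 to 8.88) and 3 of 90 in sMCAO contra (3.33%, 0.693 to 9.43). Sham L held 1 of 38 (2.63%, 0.0666 to 13.8) and Sham R 1 of 21 (4.76%, 0.120 to 23.8). Both infarcted hemispheres lay above the other 4 libraries, which did not go past 4.76%, and all intervals given here cover counting error only. The mean difference was 11.4 percentage points, with p = 0.133 in an exact two-sided permutation test of the 6 library shares. This is the smallest p that 15 splits allow, so this design could not reach 0.05. The test took the 6 libraries as exchangeable and did not use the pairing of hemispheres from the same rats.

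**Figure D1:**
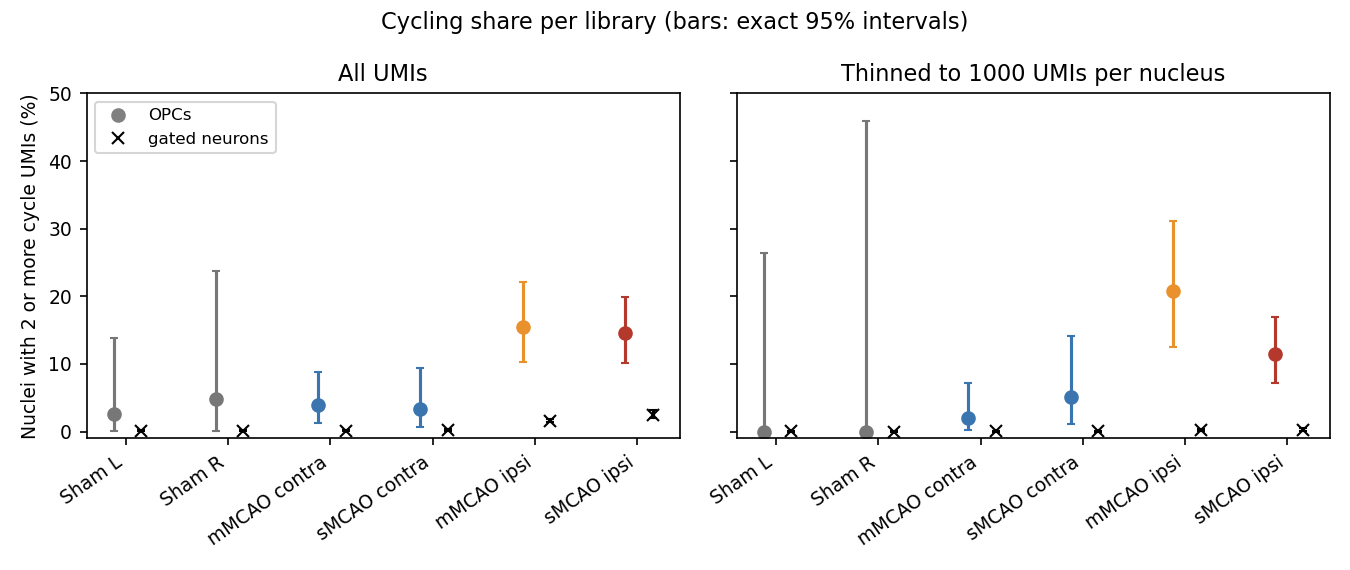
Share of nuclei with at least 2 cycle UMIs in each library (percent, points, with exact 95% intervals as bars) for OPCs and for gated neurons, with all UMIs on the left and thinned to 1000 UMIs per nucleus on the right. OPCs of mMCAO ipsi and sMCAO ipsi stand at 15.5% and 14.5%, above the other 4 libraries, and neurons stay at or below 2.50% in every library.

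The shares were also taken at equal depth, as values of single libraries with intervals that cover counting error only. Thinned to 1000 UMIs, 20.7% of 82 OPCs in mMCAO ipsi (12.6 to 31.1) and 11.4% of 184 in sMCAO ipsi (7.21 to 16.9) kept at least 2 cycle UMIs, after 79 and 36 shallower OPCs had been left out. In mMCAO contra 2.04% of 98 (0.248 to 7.18) and in sMCAO contra 5.08% of 59 (1.06 to 14.1) did so, and no test was made between libraries. None of the 12 OPCs of Sham L and none of the 6 of Sham R that were deep enough did, which allows shares of up to 26.5% and 45.9%, above those of the infarcted hemispheres, so no order against Sham was shown at this depth. With all UMIs the share in sMCAO ipsi was 0.937 times that in mMCAO ipsi, with a counting interval of 0.538 to 1.65, and with 1 library each the difference between severities was not tested. OPCs themselves were 0.290% and 0.154% of the nuclei in Sham L and Sham R, 0.883% and 0.834% in mMCAO contra and sMCAO contra, and 1.24% and 2.54% in mMCAO ipsi and sMCAO ipsi, and the part of the gate and of depth in these values was not tested.

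Nuclei with cycle UMIs were not particular to OPCs. In the astrocyte gate 11.4% of nuclei in mMCAO ipsi and 20.8% in sMCAO ipsi had at least 2, and in the myeloid gate 31.3% and 27.4% did. Mature oligodendrocytes, the myelinating end stage of the lineage, had 2.80% and 1.30%.

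Outside the 4 gate genes, UMIs were summed over an S side (genes of G1/S licensing and of DNA synthesis and repair) and a G2/M side (G2/M regulators, kinetochore genes, and spindle and cytokinesis genes). All 67 nuclei had a G2/M-side UMI, and 4 of the 57 in the infarcted hemispheres, 2 in each, had no S-side UMI. UMIs of both sides were counted in 23 of 25 cycling OPCs of mMCAO ipsi and 30 of 32 of sMCAO ipsi, but also in 38 of 136 and 73 of 188 other OPCs, so a UMI of either side did not mark a cycling nucleus. No cycling OPC had S-side UMIs alone, and the genes of the rule are themselves read mostly late in the cycle. Cycling OPCs of mMCAO ipsi held 139 S-side and 566 G2/M-side UMIs, a ratio of 0.246 (0.203 to 0.296). Those of sMCAO ipsi held 396 and 882, a ratio of 0.449 (0.398 to 0.506). The intervals of the 2 libraries, which cover counting error only, did not overlap. With 1 library each, the difference between severities was not tested. In other OPCs the ratio was 0.841 (0.691 to 1.02) and 1.29 (1.10 to 1.51). The nuclei of sMCAO ipsi were also deeper, with a median of 2152 against 1366 UMIs, and the part of depth in this difference was not tested.

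**Figure D2:**
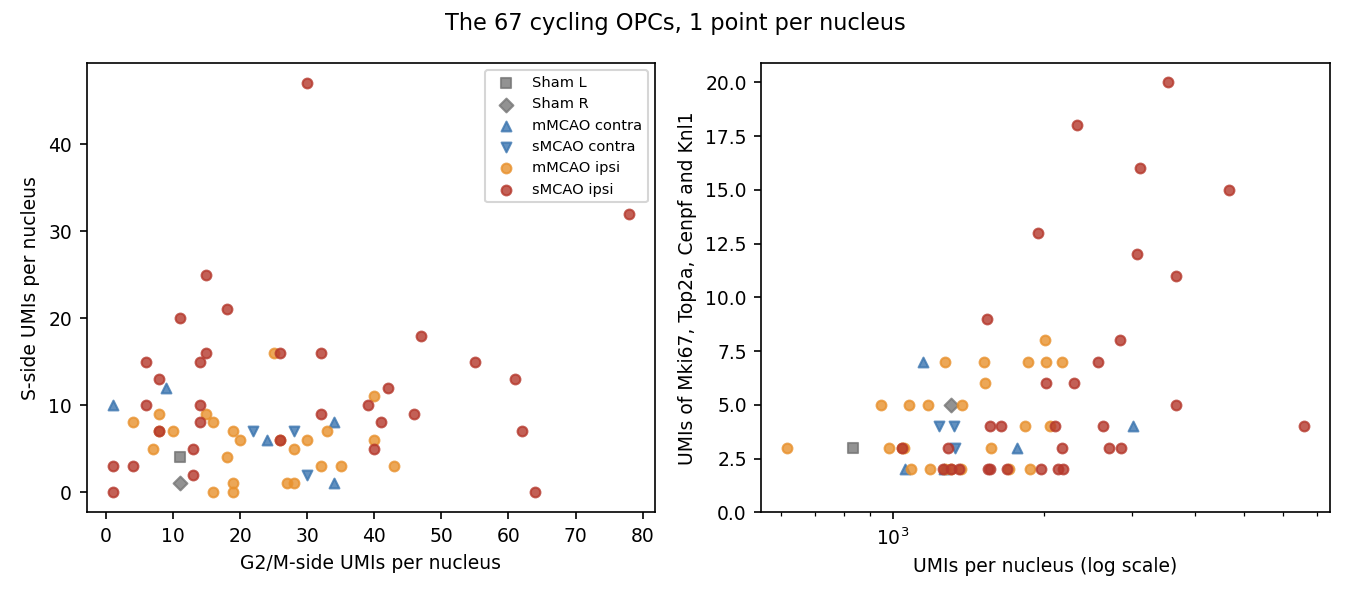
Each of the 67 cycling OPCs as 1 point, coloured and shaped by library. The left panel gives S-side UMIs (y axis) against G2/M-side UMIs (x axis) per nucleus, and the right panel UMIs of the 4 cycle genes (y axis) against all UMIs of the nucleus (x axis, log scale), where the former run from 2, the threshold, to 20 in sMCAO ipsi.

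The astrocyte and myeloid nuclei with cycle UMIs gave a scale for this ratio. It was 0.284 (0.253 to 0.319) and 0.301 (0.285 to 0.318) in the astrocyte gate of mMCAO ipsi and sMCAO ipsi, with 49 and 113 nuclei. In the myeloid gate it was 0.387 (0.362 to 0.413) and 0.460 (0.441 to 0.481), with 213 and 315 nuclei. The interval of cycling OPCs overlapped that of the astrocyte gate in mMCAO ipsi and that of the myeloid gate in sMCAO ipsi.

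UMIs of the cycle genes were also summed over all OPCs of a library, cycling or not, and compared between groups. A gene was fitted with edgeR if it reached 74.9 CPM in at least 2 of the 6 libraries, and Mki67, Cenpf and Knl1 did so in no library outside MCAO ipsi and Top2a in 1. Their being measured thus depended on the group where they were high, so their levels are given without a test. Mki67 stood at 154 CPM in mMCAO ipsi and 150 in sMCAO ipsi, at 30.7 and 19.2 in mMCAO contra and sMCAO contra, and at 28.0 and 56.1 in Sham L and Sham R. Both libraries of MCAO ipsi stood above the other 4, among which Sham L lay within the range of MCAO contra. Sham L and Sham R held 35770 and 17818 UMIs over all OPCs, so that 3 counts amounted to 83.9 and 168 CPM there, against 7.92 CPM in sMCAO ipsi. In such sums, more cycling nuclei and more transcript per nucleus cannot be told apart.

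Cenpf read 237 and 161 CPM in mMCAO ipsi and sMCAO ipsi, from 43 and 61 UMIs, against 36.8 and 38.5 in the opposite hemispheres, from 6 and 4. Knl1 read 132 in both infarcted hemispheres against 18.4 and 38.5, and Top2a read 154 and 113 against 24.5 and 57.7. For these 3 genes the 2 libraries of MCAO ipsi also stood above both of MCAO contra, and Top2a in Sham R, at 112 CPM from 2 UMIs, came close to sMCAO ipsi.

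Beyond the gate, 141 genes of 6 cycle lists were looked up, of which 23 passed the filter on low counts and 8 did so in libraries outside MCAO ipsi as well. Of these 8, Diaph3 and Pola1 rose against MCAO contra, where 2.34% of all 3378 genes tested were called higher, and 1.25% of the 2953 that passed outside MCAO ipsi. Diaph3, a formin of the contractile ring, read 259 CPM in mMCAO ipsi and 280 in sMCAO ipsi, 117 and 86.6 in mMCAO contra and sMCAO contra, and 28.0 and 56.1, from 1 UMI each, in Sham L and Sham R. Its log2 fold change against MCAO contra was 1.34 (SE 0.30, adjusted p = 0.00700 in edgeR). Pola1, a subunit of DNA polymerase, read 243 and 230 CPM against 110.4 and 86.6, with 224 and 112 in Sham L and Sham R, and its log2 fold change against MCAO contra was 1.19 (SE 0.32, adjusted p = 0.0251 in edgeR). Sham L thus lay near MCAO ipsi for Pola1 and not for Diaph3. Among genes measured through MCAO ipsi, Ect2, which starts the cleavage furrow, read 160 and 87.1 CPM in mMCAO ipsi and sMCAO ipsi against 18.4 and 28.9, with no UMI in Sham, and the mitotic motor Kif11 read 116 and 76.5 against 24.5 and 9.62, with 112 in Sham R from 2 UMIs.

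**Figure D3:**
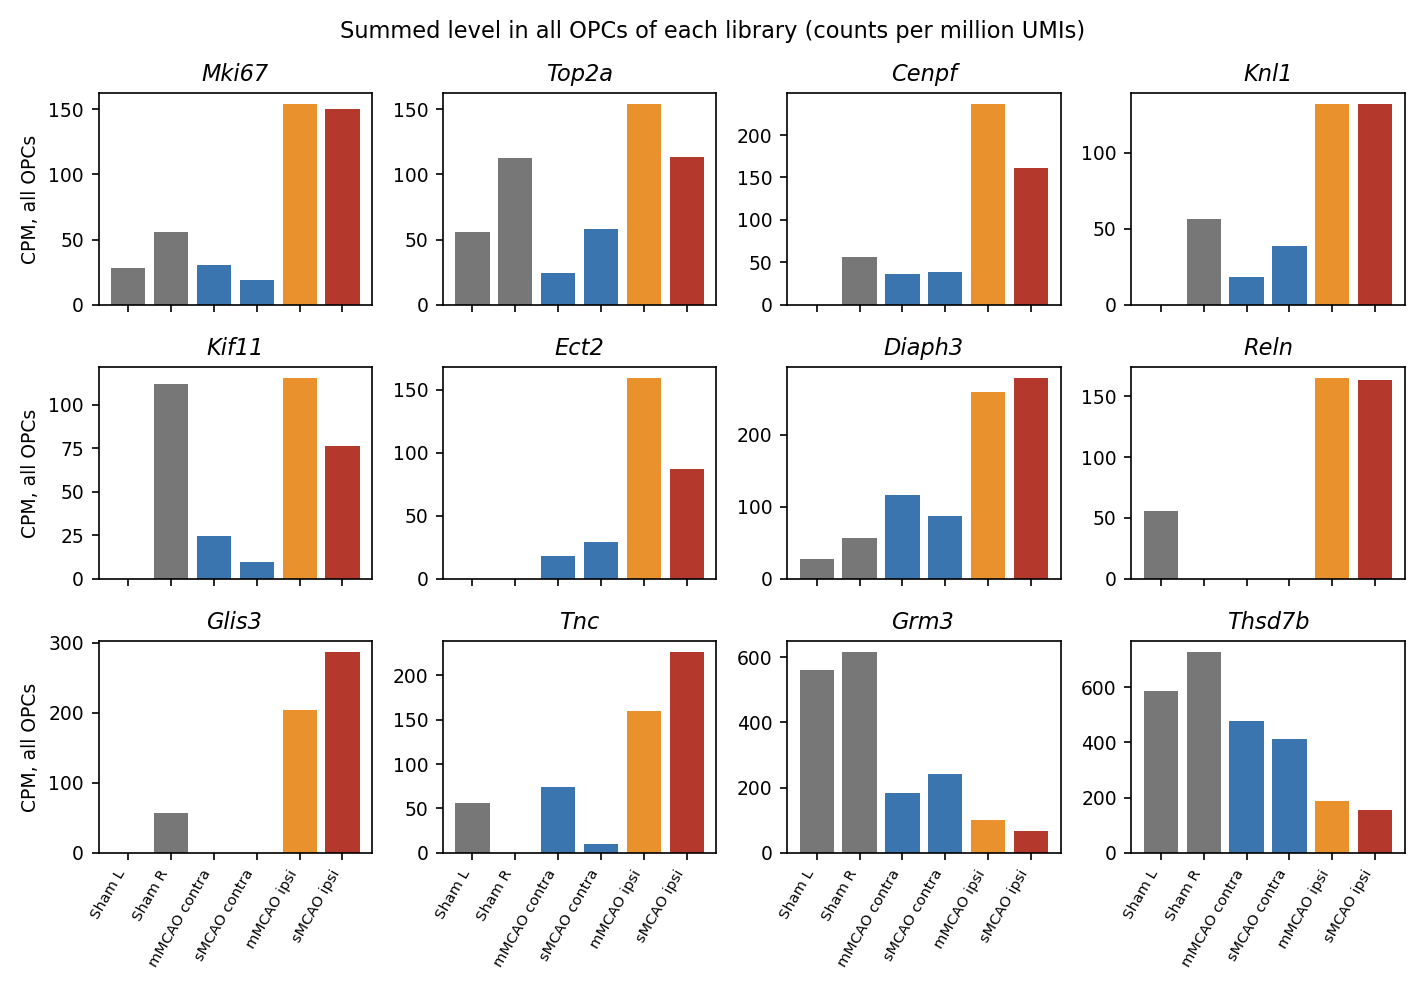
Level of 12 genes summed over all OPCs of each library (CPM, 1 bar per library, each panel with its own axis from 0). Mki67, Top2a, Cenpf, Knl1, Kif11, Ect2 and Diaph3 are higher in mMCAO ipsi and sMCAO ipsi than in both opposite hemispheres, Reln and Glis3 have no UMI in either opposite hemisphere, and Grm3 and Thsd7b are lowest in the infarcted hemispheres.

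Both calls rested on few libraries. Under DESeq2 the adjusted p was 0.242 for Diaph3 and 0.357 for Pola1. In edgeR that of Diaph3 was 0.0727 without mMCAO contra and 0.148 without sMCAO contra, and that of Pola1 0.195, 0.269 and, without sMCAO ipsi, 0.0600. Without the filter on low counts they were 0.0282 and 0.100. With the rat pool as a block both were called, and no direction turned when a library was left out.

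With the cycling nuclei taken out, the other OPCs gave no cycle gene. Only 7 genes of the 6 lists had enough UMIs to be tested in them, and none was called in either comparison, where 0.480% and 1.31% of 3126 genes were called higher, and 0.928% and 1.47% lower, against Sham and MCAO contra. Diaph3 had a log2 fold change of 0.87 (SE 0.45, adjusted p = 0.372) against MCAO contra there, and Pola1 of 0.89 (SE 0.41, adjusted p = 0.297). Taking out nuclei by their cycle UMIs lowers such genes by construction.

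Promoters of cycle genes often hold a CCAAT box and, near the start of transcription, a cell cycle homology region, through which late cycle genes are known to be kept silent until G2 phase, whereas genes of the G1/S step often hold an E2F site. The promoters of 3 of the cycle genes of the rule and of 2 spindle genes high in the nuclei, Aspm, which holds spindle poles together, and Ect2, are given here as examples that hold both sets of letters, from RefSeq on the build GRCr8, which is not the build of the counts (mRatBN7.2). Each runs 5′ to 3′ on the strand of its gene, 250 bases before the start and 50 from it on, and capitals mark CCAAT (or ATTGG on the other strand) and TTTGAA (or TTCAAA). They lie at chr1:199952544-199952843 on the minus strand (Mki67), chr10:84473044-84473343 minus (Top2a), chr13:103760837-103761136 minus (Cenpf), chr13:53625334-53625633 plus (Aspm) and chr2:111966577-111966876 minus (Ect2).
Mki67: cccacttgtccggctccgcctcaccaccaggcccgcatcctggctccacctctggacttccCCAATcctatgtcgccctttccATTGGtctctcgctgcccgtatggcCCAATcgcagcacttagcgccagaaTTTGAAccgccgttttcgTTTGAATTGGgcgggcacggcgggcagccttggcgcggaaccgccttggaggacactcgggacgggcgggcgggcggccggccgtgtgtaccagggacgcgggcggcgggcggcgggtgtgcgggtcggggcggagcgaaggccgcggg
Top2a: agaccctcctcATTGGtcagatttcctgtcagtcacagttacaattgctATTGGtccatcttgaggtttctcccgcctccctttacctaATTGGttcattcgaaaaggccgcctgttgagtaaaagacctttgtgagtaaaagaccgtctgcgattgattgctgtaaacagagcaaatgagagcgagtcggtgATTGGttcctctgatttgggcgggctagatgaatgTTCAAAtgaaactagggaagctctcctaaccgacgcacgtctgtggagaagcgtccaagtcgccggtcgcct
Cenpf: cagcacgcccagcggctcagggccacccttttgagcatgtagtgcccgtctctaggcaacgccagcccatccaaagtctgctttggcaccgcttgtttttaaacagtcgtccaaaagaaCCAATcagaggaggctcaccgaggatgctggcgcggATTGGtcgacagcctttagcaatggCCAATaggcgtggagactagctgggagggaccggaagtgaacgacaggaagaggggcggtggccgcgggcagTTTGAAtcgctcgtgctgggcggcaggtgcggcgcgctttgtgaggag
Aspm: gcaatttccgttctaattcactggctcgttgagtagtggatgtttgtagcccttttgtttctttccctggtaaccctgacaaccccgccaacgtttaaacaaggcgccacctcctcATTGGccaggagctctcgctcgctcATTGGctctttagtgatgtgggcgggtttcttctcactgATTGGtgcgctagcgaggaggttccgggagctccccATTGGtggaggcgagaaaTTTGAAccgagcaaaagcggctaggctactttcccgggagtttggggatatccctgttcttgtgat
Ect2: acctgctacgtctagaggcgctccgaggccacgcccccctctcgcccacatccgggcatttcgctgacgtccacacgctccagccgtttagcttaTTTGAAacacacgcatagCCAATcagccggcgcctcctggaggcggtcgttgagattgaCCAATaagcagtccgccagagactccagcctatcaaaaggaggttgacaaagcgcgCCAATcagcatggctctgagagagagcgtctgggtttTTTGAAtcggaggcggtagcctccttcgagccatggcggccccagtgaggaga

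Counted from base 1 of the sequence, the Mki67 promoter held CCAAT at bases 62, 84, 109 and 157, on both strands, and TTTGAA at bases 134 and 152, the last of which shared 1 base with the CCAAT match on the opposite strand. In Top2a the 4 CCAAT matches all lay on the opposite strand and TTCAAA began at base 229, 22 bases before the start. Aspm and Ect2 held 4 and 3 CCAAT matches, and Ect2 held TTTGAA at bases 96 and 248. Not all promoters looked at were like this, since that of Knl1 held TTTGAA and no CCAAT, that of Cenpe CCAAT and no TTTGAA, and that of Pdgfra, which is not a cycle gene, 1 match to each. Over the 121 promoters matched for 117 of the 145 genes of the 6 lists and the cycle gate, CCAAT was found in 57.9%, TTTGAA in 39.7% and the E2F letters TTTNGCGC (or GCGCNAAA) in 13.2%. Over all 33469 promoters of the table the shares were 37.5%, 18.3% and 1.28%. Within the lists, TTTGAA was found in 65.4% of 26 promoters of spindle and cytokinesis genes and in 11.1% of 18 promoters of G1/S genes, and TTTNGCGC in 3.85% and 44.4% of them. A match to letters is not a site in use.

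Within an infarcted hemisphere, cycling OPCs were then set against other OPCs of the same library. Since the rule made this contrast, ratios of summed CPM are given with exact Poisson 95% intervals and without a test. Spindle and cytokinesis genes stood 9.90 times (8.05 to 12.2) higher in cycling than in other OPCs of mMCAO ipsi and 15.7 times (12.9 to 19.2) higher in sMCAO ipsi, kinetochore genes 11.0 (8.08 to 15.2) and 8.85 times (6.93 to 11.4), and G2/M regulators 8.37 (5.8 to 12.2) and 12.8 times (9.21 to 18.0). The early lists stood apart by less, with 3.27 (2.53 to 4.22) and 4.97 (4.18 to 5.92) for DNA synthesis and repair and 1.87 (1.12 to 3.06) and 3.34 (2.51 to 4.42) for G1/S licensing. Condensin and cohesin genes, which compact and hold chromosomes, gave 3.30 and 3.00. Genes that brake the cycle, such as the Cdkn inhibitors and the Rb family, gave 1.62 (0.882 to 2.85) and 1.63 (1.19 to 2.23).

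**Figure D4:**
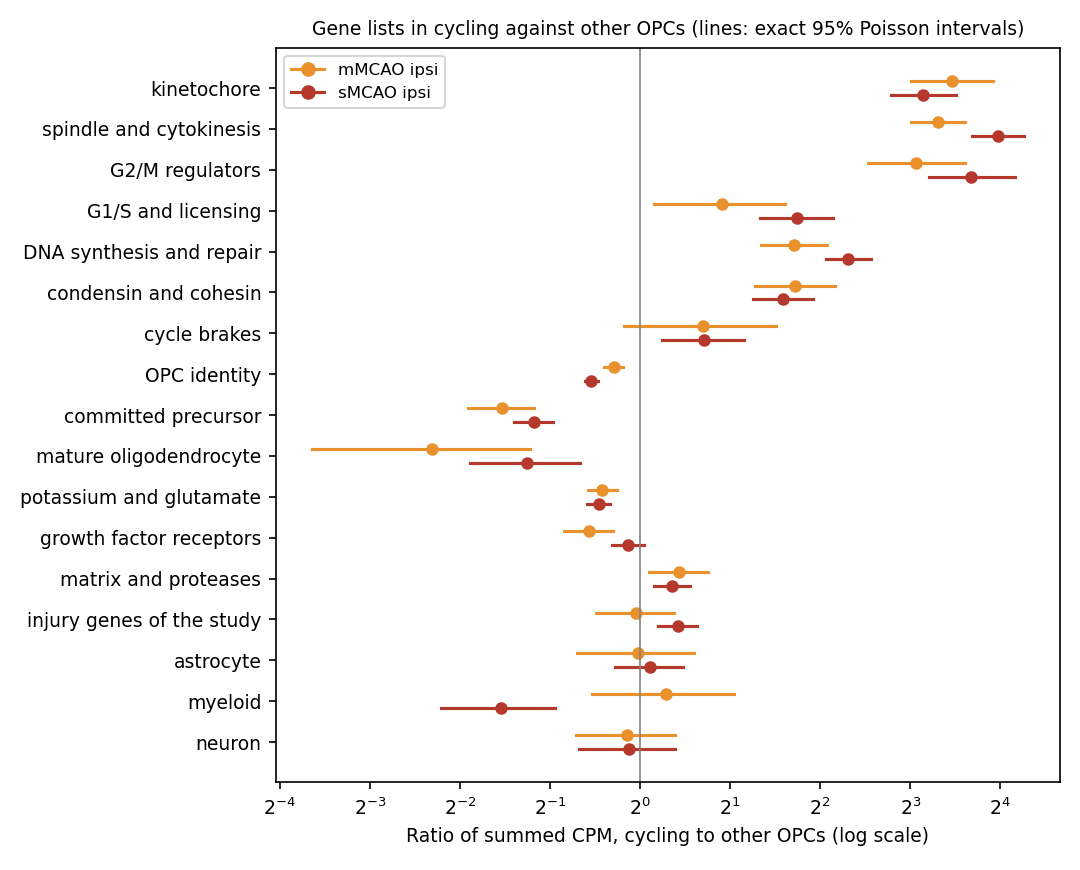
Ratio of summed CPM in cycling to other OPCs for each gene list (x axis, log scale, lines are exact 95% Poisson intervals) in mMCAO ipsi and sMCAO ipsi. Cycle lists lie to the right of 1, up to 15.7 for spindle and cytokinesis genes, and genes of committed precursors lie to the left, at 0.347 and 0.442.

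The sums were spread over many genes, with 27 of 28 spindle and cytokinesis genes having UMIs in cycling OPCs of each library and the most abundant, Diaph3, giving 8.18% and 14.4% of them. Sgo2, which guards the cohesion of centromeres, had 22 UMIs in cycling and 3 in other OPCs of mMCAO ipsi, and 31 and 1 in sMCAO ipsi, ratios of 29.7 (8.92 to 155) and 122 (20.3 to 4969). Aspm had 20 and 3, and 20 and 5 UMIs, ratios of 27.0 and 15.7. Ect2 had 23 and 6, and 31 and 2 UMIs, ratios of 15.5 and 61.0. The kinetochore motor Cenpe was at 13.0 and 12.6, the chromokinesin Kif4a at 10.8 and 15.7, and the checkpoint kinase Bub1, with 11 and 23 UMIs in cycling OPCs, at 22.3 and 30.2. Pola1, a gene of the S side, differed between the 2 libraries, at 1.35 (0.615 to 2.74) in mMCAO ipsi and 5.57 (3.57 to 8.79) in sMCAO ipsi, while the helicase Brip1 stood at 9.71 and 8.26 in both.

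Genes of OPC identity were lower, relative to all UMIs, in cycling than in other OPCs, and genes of committed precursors were lower still. The OPC list stood at 25380 against 31022 CPM in mMCAO ipsi, a ratio of 0.818 (0.761 to 0.879), and at 20811 against 30221 in sMCAO ipsi, a ratio of 0.689 (0.653 to 0.726). Of its 11 genes with at least 20 UMIs in each library, none was higher and 9 were lower in both libraries by ratio alone. Over all 1955 genes measured these shares were 30.8% and 32.3%. The intervals of 5 of the 11 lay under 1 in both libraries, against 4.50% of all genes measured. The adhesion gene Opcml was at 0.811 and 0.703 and the neurexin ligand Nxph1 at 0.734 and 0.507, while Sox6, at 1 (0.786 to 1.26) and 0.917 (0.781 to 1.07), was not told apart from 1. Among the genes of the gate, Vcan was at 0.684 and 0.682, and Pdgfra at 0.842 (0.499 to 1.36) and 1.54 (1.12 to 2.09). The rule asks for at least 4 gate UMIs per nucleus, so ratios of gate genes depend on depth and are a description. Median depths were 1366 and 2152 UMIs in cycling and 958 and 1545 in other OPCs, and the part of depth was not tested.

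The list of committed precursors stood at 1920 CPM in cycling against 5542 in other OPCs of mMCAO ipsi, a ratio of 0.347 (0.267 to 0.443), and at 2642 against 5980 in sMCAO ipsi, a ratio of 0.442 (0.380 to 0.511). Bcas1, which marks oligodendrocytes in the course of being formed, was its most abundant gene, with 668 against 2874 CPM in mMCAO ipsi (ratio 0.232, 0.147 to 0.351) and 846 against 3084 in sMCAO ipsi (0.274, 0.210 to 0.353). Without Bcas1 the list was at 0.469 (0.337 to 0.640) and 0.620 (0.515 to 0.743). Tmem108 was at 0.343 (0.160 to 0.653) and 0.610 (0.439 to 0.832), whereas Itpr2, a calcium channel of the endoplasmic reticulum, was at 1.15 and 0.814 with intervals that held 1. Genes of mature oligodendrocytes were at 0.202 and 0.421, from 7 and 26 UMIs in cycling OPCs.

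Cycling OPCs outside the infarcted hemispheres, 10 in number, also had lower values of the committed precursor list than other OPCs. In mMCAO contra the committed precursor list was at 2060 CPM in 5 cycling OPCs and at 7647 in other OPCs, and in sMCAO contra at 1540 in 3 cycling OPCs and at 6879. The single cycling nucleus of Sham L had 1198 CPM, from 1 UMI, against 10792, and that of Sham R 1530, from 2 UMIs, against 8903. Both values thus rest on fewer than 3 counts. The OPC list was at 30421 against 35896 CPM in mMCAO contra, 19507 against 35333 in sMCAO contra and 19128 against 24832 in Sham R, and the other way round in Sham L, at 29940 against 27909. The S-side to G2/M-side ratio was 0.363 (0.242 to 0.533) in mMCAO contra and 0.200 (0.109 to 0.345) in sMCAO contra. With 8 and 2 nuclei in these groups, cycling OPCs alone were not tested between groups.

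All 10 of these nuclei carried Pdgfra, against 16 of 25 in mMCAO ipsi and 22 of 32 in sMCAO ipsi. The gate admits a nucleus on Vcan alone, so the shares were taken again over OPCs with a Pdgfra UMI, a choice made after the data had been seen. Cycling nuclei were then 16 of 84 (19.0%) in mMCAO ipsi, 22 of 99 (22.2%) in sMCAO ipsi, 5 of 82 (6.10%) and 3 of 57 (5.26%) in mMCAO contra and sMCAO contra, and 1 of 18 (5.56%) and 1 of 8 (12.5%) in Sham L and Sham R. Without Pdgfra they were 9 of 77 (11.7%) and 10 of 121 (8.26%) in mMCAO ipsi and sMCAO ipsi and were not seen among 20 OPCs of Sham L, 13 of Sham R, 46 of mMCAO contra and 33 of sMCAO contra, which allows shares of up to 16.8%, 24.7%, 7.71% and 10.6% (exact 95% limits). The infarcted hemispheres stood highest in both subsets.

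Presence of Pdgfra also bore on the committed precursor list. In mMCAO ipsi it was at 1655 CPM in cycling OPCs with Pdgfra, 3066 in other OPCs with Pdgfra, 2426 in cycling OPCs without and 8018 in other OPCs without, and in sMCAO ipsi at 2140, 3193, 3685 and 8306. Cycling OPCs were thus lower within both subsets. Astrocyte genes were at 424 and 771 CPM in cycling OPCs with Pdgfra and at 1294 and 1522 in those without, in mMCAO ipsi and sMCAO ipsi. Cycling nuclei of the astrocyte gate held 14564 and 14475 CPM. That gate chose nuclei by Aqp4, Gja1, Slc1a2, Slc1a3 and Slc4a4, which belong to the same list, so its high values follow from the choice.

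Over all 1955 genes with at least 20 UMIs in each library, 43 (2.20%) were at least 2-fold higher and 41 (2.10%) at least 2-fold lower in cycling OPCs of both infarcted hemispheres with intervals off 1. Of the 43, 12 belonged to the cycle lists and 31 did not. In mMCAO ipsi alone 92 (4.71%) were higher and 100 (5.12%) lower, and in sMCAO ipsi alone 123 (6.29%) and 134 (6.85%). Against other OPCs of matched depth, 28 and 26 of 1141 genes passed.

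**Figure D5:**
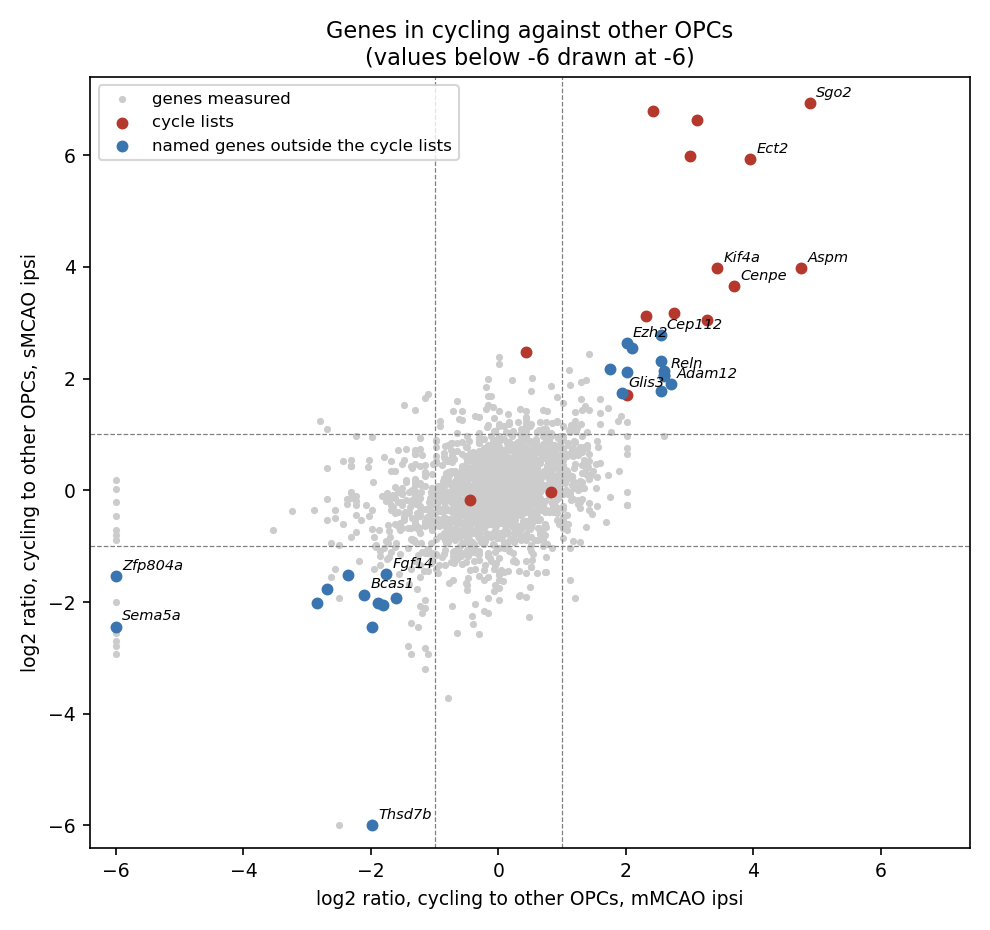
Log2 ratio of cycling to other OPCs for each measured gene outside the gates, mMCAO ipsi on the x axis and sMCAO ipsi on the y axis, with dashed lines at 2-fold and genes without a UMI in cycling OPCs drawn at the lower or left edge. Most genes of the cycle lists (red) lie to the upper right, with Sgo2 at 29.7 and 122 times, and Bcas1, Sema5a and Thsd7b lie to the lower left.

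Outside the cycle lists, the 12 genes that stood highest in both libraries were named by the rule. Cep112, a centrosomal protein, was at 5.85 (3.08 to 11.3) and 6.88 (4.24 to 11.4), Cep128, of the same organelle, at 4.27 and 5.84 and Cep295, of the centriole, at 3.37 and 4.49. Wdpcp, a gene of ciliary assembly, was at 6.07 and 4.11. Rad51b, of the repair of DNA breaks by recombination, was at 5.89 and 4.97, the centromere protein Cenpc at 5.89 and 3.44, and Ezh2, the enzyme that puts methyl groups on histone H3, at 4.05 (2.23 to 7.35) and 6.2 (3.7 to 10.6). G2e3, an E3 ligase, was at 6.07 and 4.37. Against other OPCs of matched depth Cep295 was at 2.24 in mMCAO ipsi with an interval of 0.817 to 6.22, which held 1. Ezh2 was at 2.65 (1.40 to 5.09) in the same setting and library. With a cycle UMI minimum of 3 and other OPCs with none, several ratios in mMCAO ipsi were larger. Rad51b was then at 14.2, G2e3 at 13.4, Cenpc at 11.8, Ezh2 at 8.12, Cep128 at 7.75 and Cep295 at 6.31.

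The remaining 4 were Adam12, Reln, Glis3 and Pdzrn3. Adam12, a membrane protease, stood at 807 against 124 CPM in mMCAO ipsi, a ratio of 6.52 (3.50 to 12.5), and at 703 against 189 in sMCAO ipsi, a ratio of 3.73 (2.52 to 5.50). Reln, a secreted guide of migrating neurons, was at 6.07 (2.77 to 13.8) and 4.20 (2.47 to 7.15), the transcription factor Glis3 at 3.83 (1.90 to 7.72) and 3.33 (2.24 to 4.94), and Pdzrn3, an E3 ligase, at 4.05 and 4.33. Reln and Glis3 came from 16 and 17 of the 57 nuclei, and Adam12 from 34. Against other OPCs of matched depth Reln was at 3.62 and Glis3 at 7.25 in mMCAO ipsi. With a cycle UMI minimum of 3 and other OPCs with none, Pdzrn3 was at 7.32 in that library.

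In the sums over all OPCs, Reln and Glis3 had no UMI in either opposite hemisphere. Reln was at 165 CPM in mMCAO ipsi and 164 in sMCAO ipsi, had no UMI in mMCAO contra or sMCAO contra, and was at 55.9 CPM in Sham L, from 2 UMIs, with none in Sham R. Glis3 was at 204 and 288 CPM, had no UMI in either opposite hemisphere or in Sham L, and was at 56.1 CPM in Sham R, from 1 UMI. No test was made against Sham, where these levels rest on 2 UMIs or fewer. Over both opposite hemispheres together 3 counts amounted to 11.2 CPM, and over both infarcted hemispheres Reln was at 164 CPM and Glis3 at 261. Both genes passed the filter on low counts through MCAO ipsi alone, so their difference was bound up with being measured at all and no test of it is given. Adam12, at 259 and 293 CPM against 153 and 173 in MCAO contra, had a log2 fold change of 0.76 (SE 0.28, adjusted p = 0.123).

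Wdpcp and Cep128, which passed the filter outside MCAO ipsi too, rose against MCAO contra. Both had been named for high ratios in cycling OPCs of MCAO ipsi. UMIs of those nuclei are part of these sums, so the rise is not independent of that choice. Wdpcp was at 248 and 243 CPM in mMCAO ipsi and sMCAO ipsi against 85.8 and 96.2, a log2 fold change of 1.41 (SE 0.32, adjusted p = 0.00694), and Cep128 at 204 and 216 against 67.4 and 106, a log2 fold change of 1.31 (SE 0.34, adjusted p = 0.0208). Without mMCAO contra the adjusted p of Wdpcp was 0.235 and that of Cep128 0.595, without sMCAO contra both were 0.0551, and without sMCAO ipsi that of Cep128 was 0.0814. Under DESeq2 they were 0.192 and 0.357, and without the filter on low counts that of Cep128 was 0.0728. Pdzrn3, measured through MCAO ipsi, was at 198 and 222 CPM there against 55.2 and 28.9 in MCAO contra and is not tested. Ezh2, at 276 and 177 CPM against 61.3 and 173, stood at like levels in sMCAO ipsi and sMCAO contra and was not called (adjusted p = 0.142), and neither were Cep112, Rad51b and G2e3, with adjusted p-values of 0.384, 0.148 and 0.396.

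Genes that stood lowest in cycling OPCs outside the lists of cycle genes were named by the same rule. Sema5a, a guidance protein, had 0 UMIs against 111 in mMCAO ipsi (upper bound of the ratio 0.137) and 8 against 171 in sMCAO ipsi (0.184, 0.0782 to 0.371). Thsd7b had 2 against 32 and 0 against 59 UMIs. The kainate receptor subunit Grik4 was at 0.270 and 0.246, the NMDA receptor subunit Grin3a at 0.330 and 0.262, the contactin Cntn6 at 0.286 and 0.241, and Fgf14, which tunes sodium channels, at 0.297 (0.170 to 0.485) and 0.352 (0.222 to 0.535). Ago3, Abca8a, Zfp804a and Cyfip2 had ratios from 0 to 0.350. Against other OPCs of matched depth the intervals of Grin3a (0.447, 0.110 to 1.36), Zfp804a (upper bound 1.02) and Ago3 (upper bound 1.03) held 1 in mMCAO ipsi. With a cycle UMI minimum of 3 and other OPCs with none, those of Grik4 (0.374, 0.0738 to 1.18) and Ago3 (upper bound 1.16) held 1 there. With predicted doublets left out, that of Ago3 also did (upper bound 1.01).

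Over all OPCs, Sema5a, Thsd7b and Fgf14 also fell against MCAO contra, where 2.72% of genes were called lower. They had been named for low ratios in cycling OPCs of MCAO ipsi, which are part of these sums, so the fall is not independent of that choice. Thsd7b was at 187 and 156 CPM in mMCAO ipsi and sMCAO ipsi, 478 and 414 in the opposite hemispheres and 587 and 730 in Sham L and Sham R, and it fell by 1.44 on the log2 scale against MCAO contra (SE 0.24, adjusted p = 0.000593), under all 9 alternatives, and by 1.87 against Sham (SE 0.33, adjusted p = 0.00185), where 1.33% were called lower and its adjusted p without Sham L was 0.0825. Sema5a fell by 0.94 (SE 0.21, adjusted p = 0.00746) and Fgf14 by 0.84 (SE 0.23, adjusted p = 0.0350) against MCAO contra. Without mMCAO contra the adjusted p of Sema5a was 0.358 and that of Fgf14 0.557, without sMCAO ipsi they were 0.0618 and 0.449, and without sMCAO contra that of Fgf14 was 0.145. Under DESeq2 that of Sema5a was 0.135 and that of Fgf14 0.395. Bcas1, at 2437 and 2631 CPM against 3587 and 3715, was not called (log2 fold change -0.55, SE 0.22, adjusted p = 0.167). Of the 8 tested genes of the committed precursor list, none was called against MCAO contra. Against Sham, Enpp6, Tmem108 and Nfasc were called lower and none higher, where 1.33% of all genes were called lower. In other OPCs against Sham, Tmem108 and Nfasc were called lower, where 0.928% of all genes were. How these calls moved under the alternatives is not given here.

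Channels and receptors of the list of potassium channels and glutamate receptors, by which OPCs sense neurons, were at 0.749 and 0.728 in cycling against other OPCs. Of its 16 measured genes, 10 were lower and 2 higher in both libraries, with 5 and 0 intervals off 1, against 32.3% and 30.8% of all genes and 4.50% and 2.97% with intervals off 1. The metabotropic receptor Grm7 was at 0.303 (0.179 to 0.483) and 0.519 (0.377 to 0.701), the kainate receptor subunit Grik2 at 0.608 and 0.564 and the A-type channel Kcnd2 at 0.743 and 0.617. The AMPA receptor subunits Gria4 and Gria1, at 1.15 and 0.964 and at 0.960 and 1.19, and the channel Kcnq5, at 1.14 and 1.08, had intervals that held 1. Growth factor receptors were at 0.675 and 0.912, with the neuregulin receptor Erbb4 at 0.586 (0.447 to 0.756) and 0.783 (0.656 to 0.929), and Igf1r and Ntrk2 not told apart from 1.

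A list of 12 injury genes of OPCs was taken from the study, which chose it on these samples, so its direction is not independent evidence. It was at 0.969 (0.710 to 1.30) in mMCAO ipsi and 1.34 (1.15 to 1.55) in sMCAO ipsi in cycling against other OPCs, and its members went different ways. The matrix protein Tnc was at 306 against 124 CPM in mMCAO ipsi, a ratio of 2.47 (1.06 to 5.53), and at 495 against 159 in sMCAO ipsi, a ratio of 3.11 (1.98 to 4.87). The kinase Fyn was lower, at 0.561 (0.328 to 0.911) and 0.706 (0.531 to 0.925). The other 10 genes had fewer UMIs and are described after their values were seen. The receptor Axl had 6 and 18 UMIs in cycling OPCs, ratios of 8.10 (1.73 to 50) and 3.54 (1.77 to 7.05), and was the only one of the 10 whose interval lay above 1 in both libraries. The filament protein Vim was at 4.05 (1.08 to 15.1) and 1.14 (0.612 to 2.03). In sMCAO ipsi the growth factor receptor Met, at 3.63 (1.51 to 8.63), the transcription factor Runx2, at 2.62 (1.23 to 5.41), and the alarmin Il33, at 2.07 (1.14 to 3.65), also lay above 1, whereas in mMCAO ipsi Met was at 1.01 (0.0205 to 10.2), Il33 at 0.476 (0.0534 to 2.01) and Runx2 had no UMI (upper bound of the ratio 0.981). The intervals of Cd44, Runx1, Iqgap1, Fgf2 and Vgf held 1 in both libraries. Without Tnc the list was at 0.843 (0.597 to 1.17) and 1.20 (1.02 to 1.41).

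Tnc in all OPCs passed the filter through MCAO ipsi alone and is given without a test, with 160 and 227 CPM in mMCAO ipsi and sMCAO ipsi, 73.6 and 9.62 in mMCAO contra and sMCAO contra, and 55.9 in Sham L from 2 UMIs and none in Sham R. Matrix and protease genes as a list were at 1.35 (1.07 to 1.68) and 1.28 (1.11 to 1.47) in cycling against other OPCs, with Adam12 the gene whose interval lay off 1 in both libraries. Without Adam12 the list was at 1.04 (0.802 to 1.34) and 1.10 (0.938 to 1.28), so that its interval held 1. Mmp16, a membrane metalloprotease, was at 1.02 and 0.715. Stress genes were at 1.01 and 0.710.

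Markers of other cell types were also summed in cycling OPCs. The 10 astrocyte genes summed to 724 CPM in mMCAO ipsi and 1015 in sMCAO ipsi (26 and 78 UMIs over 8 genes each), ratios of 0.984 and 1.08. The 12 myeloid genes summed to 529 and 312 CPM against 433 and 910 in other OPCs, and the 7 matched neuronal genes to 1002 and 495 against 1107 and 539. Endothelial genes had 3 and 1 UMIs, mural genes 1 and 5 and lymphocyte genes 0 and 1. Genes of subventricular zone progenitors were at 0.920 (0.272 to 2.49) and 2.05 (1.21 to 3.39), from 5 and 25 UMIs, led by Dcx and Gad1. In the 3 cycling OPCs of sMCAO contra, 9 UMIs of myeloid genes gave 2310 against 410 CPM in other OPCs. Ependymal genes were at 668 and 755 CPM, ratios of 1.54 (0.921 to 2.50) and 1.78 (1.28 to 2.45), and 23 of their 24 and 53 of their 58 UMIs came from Rfx3, a transcription factor of ciliated cells. Over all OPCs Rfx3 read 469 and 433 CPM in mMCAO ipsi and sMCAO ipsi, 233 and 250.2 in the opposite hemispheres and 224 and 281 in Sham L and Sham R. It rose against MCAO contra by a log2 fold change of 0.87 (SE 0.24, adjusted p = 0.0284), with adjusted p-values of 0.507 without mMCAO contra, 0.234 without sMCAO contra, 0.187 without the filter on low counts and 0.375 under DESeq2. The part of these markers in the ratios above was not tested.

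Cycling OPCs were set beside the astrocyte and myeloid nuclei with cycle UMIs of the same hemispheres, all of which the 4 cycle genes had chosen. Mki67 was at 640 and 664 CPM in OPCs, 444 and 451 in the astrocyte gate and 666 and 744 in the myeloid gate, and Cenpf at 1141 and 755, 666 and 520, and 578 and 602. Of the injury genes, Axl was at 167 and 234 CPM in OPCs and at 139 and 226 in the astrocyte gate. Vim was at 167 and 208 CPM in OPCs against 536 and 984 in the astrocyte gate, Cd44 at 55.7 and 247 against 601 and 563, and Tnc at 306 and 495 against 435 and 1199. Adam12, at 807 and 703 CPM in OPCs and 1110 and 1027 in the astrocyte gate, was at 60.02 and 29.7 in the myeloid gate. Il33 was at 55.7 and 260 CPM in OPCs and at 9.25 and 2.07 in the astrocyte gate. These are single libraries, and no test was made.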

How the data were processed

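Single nuclei of 6 pooled libraries had been profiled with a 5′ droplet kit, and the authors had aligned the reads and counted UMIs with Cell Ranger 7.0.0 on mRatBN7.2. The deposited values were raw UMI counts per gene and nucleus for 30560 genes, with no normalization by the authors. Groups came from the labels. Of the 5 OPC genes of the rule, Ptprz1 was not matched here, so 4 were summed, and of 366 genes over all lists 16 were not matched. Doublets were scored and kept. The nuclei, lists and tests were chosen with earlier results of these data known.

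Counts were summed per library over all OPCs, cycling OPCs and other OPCs. CPM are UMIs of a gene over all UMIs of the sum. Within a library, cycling and other OPCs were compared by ratios of CPM with exact 95% Poisson intervals, over genes with at least 20 UMIs in cycling and other OPCs together in each infarcted hemisphere. Between groups, edgeR 4.0.16 (quasi-likelihood test over all 6 libraries, TMM scaling, Benjamini-Hochberg adjustment over all genes tested) called genes at an adjusted p under 0.05 and a log2 fold change of at least 0.6. DESeq2 1.42.0 was the alternative. Tests of single genes higher in MCAO ipsi are given for those that passed the filter (74.9 CPM in 2 libraries) outside MCAO ipsi too, a limit set after seeing the data. Cycling OPCs alone were not tested between groups, as libraries outside the infarcted hemispheres held 1 to 5 of them. Of each list, up to 6 genes with at least 10 UMIs in cycling OPCs of both infarcted hemispheres were named. Genes named outside the cycle lists were the 12 highest and 12 lowest ratios by the smaller change of the 2 libraries. Within the cycle lists the 5 highest were named. 1 gene among the lowest is not reported here. Library totals of 33012945 to 52513380 UMIs gave OPC sums of 17818 to 379006 UMIs, which sets the precision. Python 3.11.15 and R 4.3.3 were used, and the edgeR fit was tested on simulated data. Promoter sequences came from RefSeq (GRCr8).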

Additional observations from a re-analysis of the deposited data

Results flagged for a closer look

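Of 1955 genes, 6 had ratios of cycling to other OPCs on opposite sides of 1 in mMCAO ipsi and sMCAO ipsi with both intervals off 1. Map1b, a protein of microtubules, was at 0.253 in mMCAO ipsi and 1.93 in sMCAO ipsi, Frmd5 at 0.588 and 1.46, Akap2, an anchor of protein kinase A, at 0.156 and 2.13, and Tnfrsf19, a receptor of the tumour necrosis factor family, at 0.145 and 2.36. Dock10, an activator of small GTPases, was at 1.68 and 0.439 and Adgrl3, an adhesion receptor, at 1.24 and 0.843. Each value comes from 1 library, and the difference between moderate and severe infarction was not tested.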

How the results depend on the processing

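Of 24 alternative values of the cycling share, 19 moved by less than their counting interval. With 1 cycle UMI as the minimum it was 26.1% in mMCAO ipsi and 20% in sMCAO ipsi, over OPCs with a Pdgfra UMI (chosen after seeing the data) 22.2% in sMCAO ipsi, and in Sham 0 when thinned to 1000 UMIs and 0 over OPCs without a neuron UMI. The 84 genes past 2-fold in both infarcted hemispheres became 127 at 1.5-fold, 46 with at least 40 UMIs, 54 against other OPCs of matched depth and 32 over OPCs with Pdgfra, where fewer genes were tested. In all OPCs against Sham, 69 called genes became 28 with DESeq2, 16 in a fit of the 4 libraries compared, and 18 (without Sham L) to 164 (without mMCAO ipsi) with 1 library left out. Against MCAO contra, 171 became 25 with DESeq2 and 54 (without mMCAO contra), 70 (without sMCAO ipsi), 97 (without sMCAO contra) and 361 (without mMCAO ipsi). In other OPCs against Sham, 44 became 23 with DESeq2, 70 with no filter on low counts, 1 in the fit of 4 libraries and 1 (without Sham L) to 150 (without mMCAO ipsi). Against MCAO contra, 87 became 14 with DESeq2, 33 (without mMCAO contra or sMCAO ipsi) to 315 (without mMCAO ipsi), and 142 with the rat pool as replicate block, which pairs the hemispheres of the same rats. The causes were not tested beyond the changes in genes and libraries fitted. The block gave 223 called genes in all OPCs. No paired analysis was possible against Sham because those rats differ from the MCAO rats. The planned gate without Ptprz1 is the one used throughout, since that gene was not matched, and a gate with it was not run. A library left out leaves its group with 1 sample, which is assumed to vary like the others. Sham, with 59 OPCs, limits what could be detected against it.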
